A study of Mus musculus with 47 samples.

Results

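The Reg family consists of small secreted proteins built around a C-type lectin domain. Its 5 members followed here are Reg1, Reg3a, Reg3b, Reg3g and Reg4, taken by gene symbol from the 38087 genes of the count table, and each had 1 row. The study sequenced total RNA from 47 samples of mouse small intestine. All came from male C57BL/6J mice aged 15 to 16 weeks with free access to food, with no transgene or deletion named. Germ-free (GF) mice are raised without microorganisms, and conventionally raised (convR) mice carry a gut flora. Tissue was taken from duodenum, next to the stomach, and from ileum, next to the colon, every 4 h from ZT2 to ZT22, where zeitgeber time (ZT) counts the hours since the lights came on. There were 12 convR duodenum, 12 GF duodenum, 12 convR ileum and 11 GF ileum libraries, 2 for each time but 1 for GF ileum at ZT2. Whether the libraries of a group are separate mice is not stated in the labels, and each p-value therefore reflects only how far these libraries vary, which may be partly technical.

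Reg3g and Reg3b are released by enterocytes and Paneth cells into the mucus, where Reg3g binds peptidoglycan and kills Gram-positive bacteria. Their transcription in the gut epithelium is known to depend on Toll-like receptor signals through Myd88 and on interleukin 22, which acts through the factor Stat3. Reg1 was first studied as a secreted protein of the exocrine pancreas and of regenerating islets, and Reg4 is made by enteroendocrine and goblet cells. Less is known of mouse Reg3a.

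Libraries held 22.5 to 41.9 M counts, and levels are given as CPM, the count of a gene divided by the library's total count in M. Markers of pancreas acinar cells, averaged over 17 genes, exceeded 20 CPM in 8 duodenum libraries, 6 of convR (34.6 to 231.9 CPM) and 2 of GF (498.5 and 573.9 CPM). In the other duodenum libraries this mean was 0.782 to 5.99 CPM, and the defining enzymes Prss2 and Cpa1 were at 0 CPM in the lowest of them. Markers of stomach and Brunner gland reached 1937 CPM in replicate 1 of convR duodenum at ZT14 and 557.7 CPM in replicate 2 of GF duodenum at ZT22, the only libraries over 100 CPM. The ileal bile acid carrier protein Fabp6 marked the ileum libraries (median 3076 CPM in convR and 2898 CPM in GF), but was under 1000 CPM in convR ZT6 replicate 2 (206.3 CPM) and GF ZT22 replicate 2 (599.8 CPM). Results were repeated without each of these sets of libraries.

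In mm10, with GENCODE M21 annotation, 4 of the 5 genes lie in one 98.2 kb stretch of chromosome 6, with the related genes Reg3d and Reg2 between them. Reg3b (ENSMUSG00000071356) is at chr6:78370657-78373466 and Reg3a (ENSMUSG00000079516) at chr6:78380709-78383827. Reg1 (ENSMUSG00000059654) is at chr6:78422711-78428667, and these 3 are on the plus strand. Reg3g (ENSMUSG00000030017), at chr6:78466269-78468872, closes the cluster on the minus strand. Reg4 (ENSMUSG00000027876) lies apart at chr3:98222156-98236748, on the plus strand. All 5 are protein-coding, and no other annotated gene overlaps them.

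The Reg3 genes are close copies, so reads that could belong to more than one of them were looked for. Across all 21 pairs of the 7 family genes on mouse chromosomes 3 and 6, the longest identical run in the annotated transcripts was 35 bases, between Reg3b and Reg3g. It is shown as the longest stretch in which reads of the pair cannot be told apart by any base (capitals mark the identical bases):
Reg3b and Reg3g shared run: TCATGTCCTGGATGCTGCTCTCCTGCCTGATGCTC
The next longest run in any pair was 24 bases, and 0 of 21 pairs shared a run as long as a read of 100 bases. Over 747 aligned bases the Reg3b and Reg3g transcripts were 71.6% identical. Reads that align with mismatches could still be shared. How the authors' counting treated reads that align to several places is not given in the sources used here.

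The stretches before the start sites of the 3 Reg3 genes are shown because Reg3b and Reg3g moved together in these data, in the opposite direction to Reg3a. Each is the 250 bases up to the transcript start in RefSeq (GRCm38.p6), written 5′ to 3′ on the strand of the gene. Reg3b is chr6:78370635-78370884 (plus), Reg3g is chr6:78468875-78469124 (minus) and Reg3a is chr6:78380459-78380708 (plus). Capitals mark matches, on either strand, to TTCNNNGAA, the palindromic core bound by STAT factors, and to TATAAA.
Reg3b: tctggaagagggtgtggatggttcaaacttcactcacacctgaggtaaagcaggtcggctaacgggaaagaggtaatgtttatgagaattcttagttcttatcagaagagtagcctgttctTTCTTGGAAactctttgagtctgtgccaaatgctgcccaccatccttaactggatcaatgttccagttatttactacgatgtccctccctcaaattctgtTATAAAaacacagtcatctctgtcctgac
Reg3g: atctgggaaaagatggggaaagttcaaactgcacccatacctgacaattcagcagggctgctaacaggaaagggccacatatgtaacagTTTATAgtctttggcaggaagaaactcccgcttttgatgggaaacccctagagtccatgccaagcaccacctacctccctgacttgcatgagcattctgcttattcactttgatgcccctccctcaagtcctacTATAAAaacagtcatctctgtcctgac
Reg3a: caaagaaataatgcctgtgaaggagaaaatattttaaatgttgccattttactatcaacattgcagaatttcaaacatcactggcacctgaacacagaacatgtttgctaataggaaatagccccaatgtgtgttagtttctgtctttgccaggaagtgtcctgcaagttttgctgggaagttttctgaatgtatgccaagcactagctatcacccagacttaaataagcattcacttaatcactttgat
The TTCNNNGAA match in Reg3b begins 129 bases before the start, and TATAAA begins 29 bases before it in Reg3b and 27 bases before it in Reg3g. Of the 7 family windows of 300 bases (50 of them past the start), those of Reg3b and Reg3d held TTCNNNGAA, and those of Reg1, Reg2, Reg3b and Reg3g held TATAAA. Of all 32851 mouse windows, 8.3% held TTCNNNGAA and 13.6% held TATAAA. The E-box CACGTG, bound by clock factors, was in none of the 7 family windows and in 7.15% of all windows. Reg3b and Reg3g were 70.0% identical over 247 aligned upstream bases, Reg3a and Reg3g 69.2% over 201, and Reg3a and Reg3b 62.2% over 196. A match to these letters is a description and does not show that a factor binds there. The GENCODE model of Reg3b begins within the window printed for it.

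The first question was how each transcript differs between GF and convR mice. In duodenum 4 of the 5 members passed the test at an adjusted p under 0.05, Reg3b and Reg3g lower and Reg3a and Reg4 higher in GF. Of all 17986 genes tested there, 46.3% passed, 22.5% higher and 23.8% lower. In ileum 3 of 5 passed, Reg3b and Reg3g lower and Reg3a higher, against 42.0% of 18082 genes, 19.5% higher and 22.4% lower. With so many genes called, the number of members called says little by itself. Ranked from the lowest log2 fold change, Reg3g was number 4 and Reg3b number 14 of all genes in duodenum, and number 161 and 210 in ileum. No member's difference between GF and convR changed sign when libraries were scaled by their totals alone or tested with DESeq2.

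**Figure D1:**
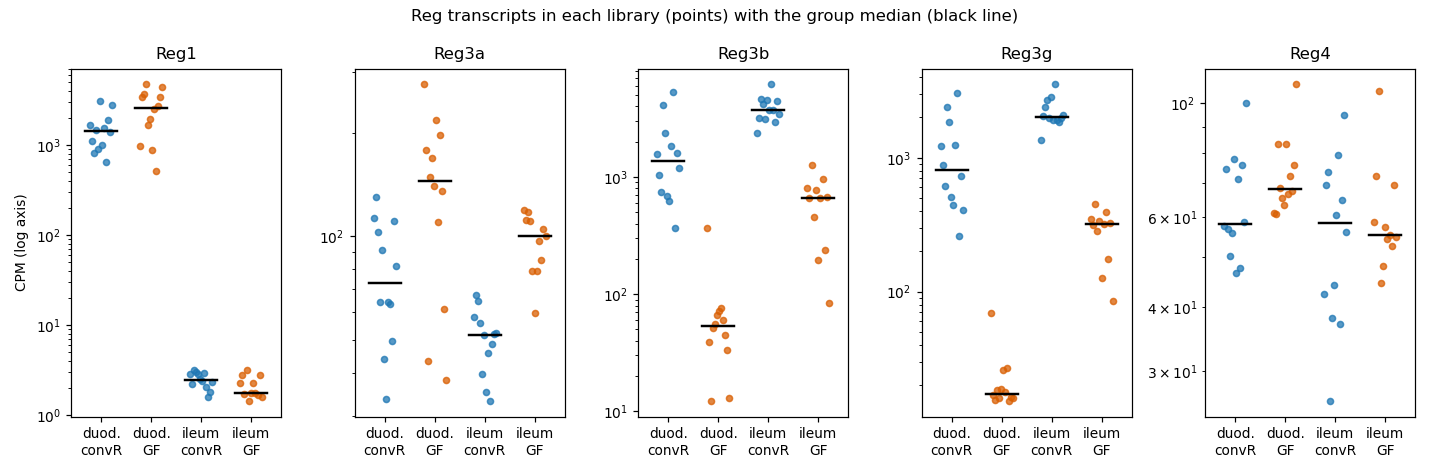
CPM on a log axis (its range differs by panel) for each of the 5 Reg genes, with 1 point per library (12 convR duodenum, 12 GF duodenum, 12 convR ileum, 11 GF ileum) and a black line at the group median. The GF points of Reg3g lie below every convR point in both tissues (68.97 CPM at most against 259.4 CPM at least in duodenum), and Reg1 is at 510.8 CPM or more in every duodenum library and at 3.19 CPM or less in every ileum library.

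Reg3g, the lectin that kills Gram-positive bacteria, was at 259.4 CPM in the lowest, 808.1 CPM in the median and 3052 CPM in the highest convR duodenum library. In GF duodenum it was at 15.27, 17.29 and 68.97 CPM. All 12 GF libraries were below all 12 convR libraries, a separation seen in this direction for 3.25% of genes in duodenum, and the mean was 49.8-fold lower (1133 ± 874 against 22.75 ± 15.1 CPM, SD). The edgeR log2 fold change was -5.54 ± 0.48 (SE, adjusted p = 7.43e-08). In convR ileum Reg3g was at 1364, 2021 and 3529 CPM (lowest, median, highest), and in GF ileum at 84.65, 317.3 and 447.3 CPM. Here too no GF library reached a convR library, as for 4.84% of genes in ileum. The convR mean was 2215 ± 572 CPM and the GF mean 286.8 ± 112 CPM (SD, n = 12 and 11), a 7.72-fold fall. By edgeR the log2 fold change was -2.92 ± 0.24 (SE, adjusted p = 3.45e-08). In whole tissue, fewer cells of a type and less RNA per cell cannot be told apart.

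Reg3b, its close relative at the other end of the cluster, was the more abundant of the pair. It was at 365.9, 1381 and 5310 CPM (lowest, median, highest) in convR duodenum and at 12.29, 53.58 and 367.1 CPM in GF duodenum. The groups met at 1 point: GF ZT2 replicate 1, at 367.1 CPM, just exceeded convR ZT18 replicate 2, and the other 11 GF libraries were at 76.26 CPM or less. Reg3b fell 24.2-fold on the means in duodenum (1791 ± 1502 to 74.13 ± 94.6 CPM, SD, n = 12 and 12), and the edgeR log2 fold change was -4.82 ± 0.64 (SE, adjusted p = 1.11e-05). Without GF ZT2 replicate 1 the GF mean was 47.5 ± 21.6 CPM (SD, n = 11) and the fall 37.7-fold. In ileum it was at 2361, 3722 and 6167 CPM in convR and at 84.8, 667.3 and 1258 CPM in GF, with no overlap. That was a 6.28-fold fall, from 3866 ± 1005 to 615.6 ± 351 CPM (SD), with a log2 fold change of -2.65 ± 0.35 by edgeR (SE, adjusted p = 1.19e-05). The lowest GF ileum library for both genes was ZT22 replicate 2, one of the 2 with little Fabp6. Without the 2 libraries of little Fabp6 the log2 fold changes were -2.53 for Reg3b and -2.81 for Reg3g.

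The loss in GF was larger in duodenum than in ileum for both genes. The difference between the 2 effects (ileum minus duodenum) was 2.62 ± 0.47 log2 for Reg3g (SE, edgeR interaction test, adjusted p = 2.23e-04) and 2.17 ± 0.67 for Reg3b (adjusted p = 0.0277). These 2 of 5 members passed, against 12.3% of 19000 genes (4.58% with a higher and 7.69% with a lower value in ileum), and they ranked 10th and 24th from the highest difference. The Reg3b call is the less firm, since leaving out single libraries moved its difference between 1.78 and 2.55, and 5 of 47 such fits missed the threshold: those without convR duodenum ZT18 replicate 1 or ZT6 replicate 2, or GF ileum ZT18 replicate 1, ZT22 replicate 1 or ZT2 replicate 2 (adjusted p = 0.0504 to 0.0733). Reg1, Reg3a and Reg4 did not pass, with differences of -0.95 ± 0.40, 0.10 ± 0.32 and -0.14 ± 0.21 log2 (SE).

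**Figure D2:**
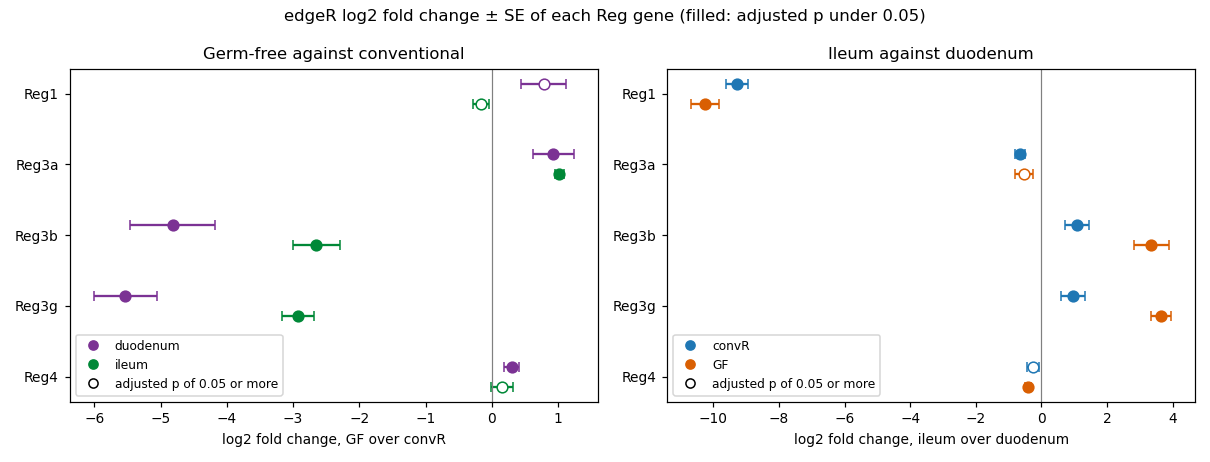
Left, log2 fold change of GF over convR in duodenum (purple) and ileum (green); right, log2 fold change of ileum over duodenum in convR (blue) and GF (orange), each with its SE from edgeR. Filled points passed an adjusted p of 0.05. Reg3b and Reg3g lie at -4.82 and -5.54 in duodenum and at -2.65 and -2.92 in ileum, while Reg3a lies near 1 in both.

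Reg3a, which sits 2 genes from Reg3b, went the other way. It was at 33.2, 51.72 and 67.49 CPM (lowest, median, highest) in convR ileum and at 59.96, 99.79 and 119.4 CPM in GF ileum. Of the 11 GF libraries, 10 exceeded every convR library. Reg3a rose 1.92-fold on the means in ileum (50.41 ± 10.7 to 96.74 ± 18.8 CPM, SD), and was higher at all 6 times. By edgeR the log2 fold change was 1.02 ± 0.07 (SE, adjusted p = 1.05e-09). In duodenum it was at 33.65, 73.29 and 130.2 CPM in convR and at 38.28, 144.5 and 276.2 CPM in GF, where 8 of 12 GF libraries exceeded every convR library. Its mean there was 79.05 ± 30.6 CPM in convR and 142.9 ± 71.8 CPM in GF (SD), and the edgeR log2 fold change was 0.93 ± 0.31 (SE, adjusted p = 0.0189).

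Of the GF duodenum libraries, those lowest in Reg3a were also high in pancreas or stomach markers. Replicate 1 at ZT6 (43.46 CPM), replicate 1 at ZT22 (61.51 CPM) and replicate 2 at ZT22 (38.28 CPM) were the lowest of the 12, and they are the 3 GF duodenum libraries over those limits. In convR duodenum Reg3a was not lower where pancreas markers were high, at 83.88 ± 31.3 CPM (n = 6) against 74.23 ± 31.9 CPM in the other 6 libraries (SD). Those other 6 include convR ZT14 replicate 1, which held 1937 CPM of stomach markers and the lowest Reg3a of convR duodenum, 33.65 CPM. The mean in GF was lower than in convR at ZT22 (49.9 against 96.21 CPM) and higher at the other 5 times. The part of pancreas or stomach tissue in this was not tested. Without the 8 libraries of high pancreas markers the log2 fold change was 1.14 ± 0.47 (SE, adjusted p = 0.0931). Without the 2 libraries of high stomach markers it was 0.97 ± 0.27 (SE, adjusted p = 0.00777).

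Reg1, the family member of the exocrine pancreas, was an abundant transcript of duodenum. Its levels were 643, 1421 and 3109 CPM (lowest, median, highest) in convR and 510.8, 2594 and 4699 CPM in GF. The groups overlapped widely, with 5 of 12 GF libraries above every convR library and 1 below. The means were 1523 ± 760 CPM in convR and 2566 ± 1395 CPM in GF (SD), and the edgeR log2 fold change, 0.79 ± 0.34 (SE, adjusted p = 0.067), did not pass. Reg1 was also high where pancreas markers were low, at 1306 ± 917 CPM in the 6 convR libraries and 2373 ± 1458 CPM in the 10 GF libraries with little pancreas marker (SD). In the libraries over 20 CPM of markers it was at 1740 ± 564 CPM (convR, n = 6) and 3395 and 3667 CPM (GF). With the marker level as a covariate the log2 fold change was 0.96 (adjusted p = 0.0417), and without the 8 libraries it was 1.17 (adjusted p = 0.149). In ileum Reg1 was at 2.49 ± 0.51 CPM in convR and 2.12 ± 0.58 CPM in GF (SD), and the log2 fold change of -0.17 ± 0.12 (SE, adjusted p = 0.292) did not pass.

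Reg4, made by enteroendocrine and goblet cells, had the smallest fitted difference between GF and convR in both tissues. In duodenum it was at 46.58, 58.16 and 100.1 CPM (lowest, median, highest) in convR and at 60.65, 67.94 and 108.8 CPM in GF. Only 1 GF library exceeded all convR libraries, while 7 convR libraries were below all GF libraries. Reg4 rose 1.23-fold in the edgeR fit (log2 fold change 0.30 ± 0.12, SE, adjusted p = 0.0433). Under scaling by library totals, which moved the median log2 fold change of all genes from -0.01 to -0.14, it was 0.18 (adjusted p = 0.183), and it missed the threshold in 14 of 24 fits that left out a library. In ileum the log2 fold change was 0.15 ± 0.17 (SE, adjusted p = 0.502), with means of 57.15 ± 20.2 CPM in convR and 61.13 ± 16.8 CPM in GF (SD). Of 14 markers of enteroendocrine cells, 8 rose and 1 fell in GF duodenum (median 0.38, with 22.5% of all genes higher and 23.8% lower), and 2 rose and 5 fell in GF ileum (median -0.26, with 19.5% and 22.4%). Of 10 goblet cell markers, 1 rose and 3 fell in duodenum (median -0.17), and 1 rose and 5 fell in ileum (median -0.11).

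The related genes between the members were near silent. Reg3d averaged 0.79 ± 0.50 CPM in convR duodenum, 1.13 ± 0.47 CPM in GF duodenum and about 0.3 CPM in ileum (0.29 ± 0.12 in convR, 0.31 ± 0.12 in GF, SD). Reg2, another pancreas-expressed member, ranged from 0 to 7.26 CPM in convR duodenum and did not exceed 0.137 CPM in GF duodenum or 0.0622 CPM in ileum.

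The second question was how the family is laid out along the intestine. Between ileum and duodenum 4 of 5 members passed in convR (background 49.6% of 18164 genes, 24.9% higher and 24.8% lower in ileum) and 4 of 5 in GF (background 66.5% of 17909 genes, 33.2% higher and 33.4% lower). These comparisons use the same libraries as those between GF and convR, so the 2 sets of values are not independent. Reg1 was a transcript of duodenum in both. Its fitted log2 fold change, ileum over duodenum, was -9.29 ± 0.33 (SE, edgeR adjusted p = 3.65e-14) in convR, a 625-fold difference, and -10.26 ± 0.42 (SE, adjusted p = 6.2e-13) in GF. Counted from the lowest fold change, only 5 of 18164 genes in convR and 3 of 17909 in GF came before it.

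Reg3b and Reg3g were higher in ileum. In convR the log2 fold changes were 1.09 ± 0.37 for Reg3b (SE, edgeR adjusted p = 0.0208) and 0.96 ± 0.36 for Reg3g (adjusted p = 0.0324). In GF they were 3.36 ± 0.52 (adjusted p = 2.26e-05) and 3.66 ± 0.30 (adjusted p = 8.2e-09). The Reg3g call in convR was lost without the libraries of high pancreas markers (1.16, adjusted p = 0.0554), without that of high stomach markers (0.85, adjusted p = 0.0558) and in 7 of 24 fits that left out a library. Reg3a was lower in ileum, by 0.65 ± 0.14 log2 in convR (SE, adjusted p = 6.66e-04), and its difference of -0.52 ± 0.27 in GF (adjusted p = 0.102) did not pass. Without GF duodenum ZT6 replicate 1 or ZT22 replicate 2 the GF value was -0.65 or -0.67 (adjusted p = 0.0242 and 0.0261). Reg4 fell by 0.41 ± 0.09 log2 from duodenum to ileum in GF (SE, adjusted p = 4.61e-04), and its value of -0.25 ± 0.17 in convR (adjusted p = 0.249) did not pass.

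From these tests the order of levels over the 4 groups can be read for each gene. For Reg3b and Reg3g it was convR ileum, convR duodenum, GF ileum and GF duodenum. GF ileum and convR duodenum, the middle neighbours, were not compared directly, and their ranges overlap (up to 1258 and from 365.9 CPM for Reg3b, up to 447.3 and from 259.4 CPM for Reg3g). For Reg3a the order was GF duodenum, GF ileum, convR duodenum and convR ileum, and the upper neighbours did not pass the test, while the middle neighbours were not compared directly. For Reg1 both duodenum groups lay far above both ileum groups, and neither pair passed the test between GF and convR. For Reg4 the means ran only from 57.15 to 72.97 CPM.

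Set against each other per kb of spliced transcript, so that genes can be compared, the members made up very different pools in the 4 groups. In convR duodenum Reg1 held 39.1 ± 20.7%, Reg3b 34.6 ± 13.1% and Reg3g 23.1 ± 8.99% of the summed level (SD, n = 12). In GF duodenum Reg1 held 85.22 ± 14.03%. In convR ileum Reg3b held 62.1 ± 2.68% and Reg3g 36.3 ± 2.68%, and in GF ileum Reg3b held 54.4 ± 11.5%, Reg3g 28.6 ± 2.62% and Reg3a 11.1 ± 7.18%. The convR ileum was thus the most uniform group, while the share of Reg1 in convR duodenum ran from 7.15% to 72.5%. Together the 5 genes took 0.459 ± 0.214% of all counts in convR duodenum, 0.288 ± 0.130% in GF duodenum, 0.619 ± 0.154% in convR ileum and 0.106 ± 0.048% in GF ileum (SD).

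**Figure D3:**
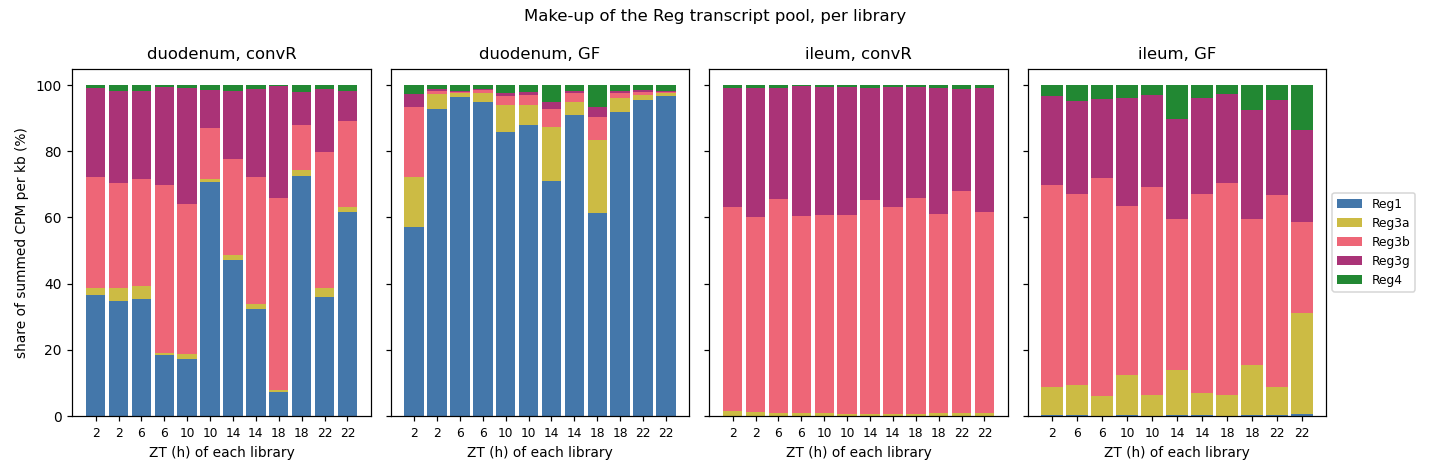
Share of each Reg gene in the summed CPM per kb of the 5 genes, 1 bar per library in order of ZT. Reg1 fills most of the GF duodenum bars (57.2% to 96.8%), Reg3b and Reg3g fill the convR ileum bars, and Reg3a reaches its highest share in ileum, 30.6%, in GF ZT22 replicate 2.

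Reg3b and Reg3g varied together from library to library. Across the libraries of a group the Pearson r of their log2(CPM + 0.5) was 0.94 in convR duodenum (n = 12), 0.89 in convR ileum (n = 12), 0.81 in GF duodenum (n = 12) and 0.99 in GF ileum (n = 11). These points share library, depth and tissue piece, and r is a description. Per kb of transcript Reg3b exceeded Reg3g in all 24 convR libraries, 1.58 ± 0.50-fold in duodenum and 1.73 ± 0.21-fold in ileum (SD). In GF the ratio was 2.73 ± 1.28 in duodenum (0.777 to 5.24) and 1.94 ± 0.52 in ileum (0.987 to 2.77). Reg3a tracked Reg3b in GF duodenum (r = 0.84, n = 12) but much less in convR duodenum (r = 0.27), GF ileum (r = 0.39) and convR ileum (r = -0.06). In GF duodenum Reg3a was low, and pancreas or stomach markers high, in the same 3 libraries, whose part in this relation was not tested.

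**Figure D4:**
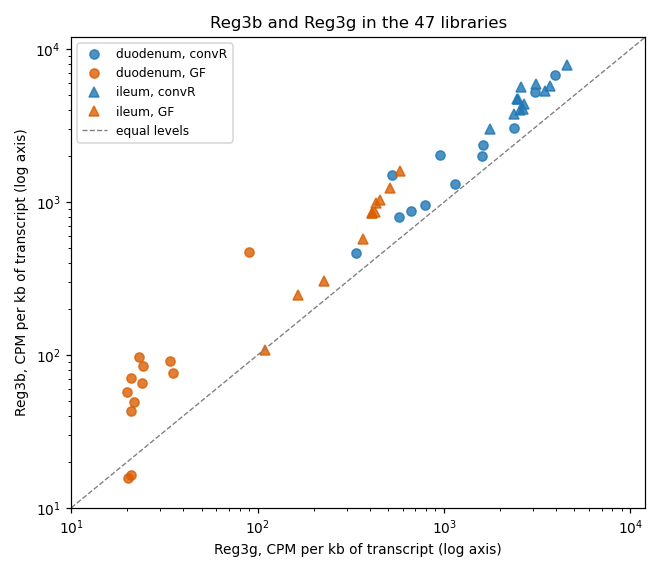
CPM per kb of spliced transcript for Reg3b against Reg3g in the 47 libraries, both axes logarithmic; circles are duodenum, triangles ileum, blue convR, orange GF, and the dashed line marks equal levels. The convR libraries lie above the line, and GF duodenum forms the lowest cloud, with ZT2 replicate 1 apart from it at 468.9 CPM per kb of Reg3b.

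The widest gaps in Reg3b and Reg3g between libraries of one time were in convR duodenum. There, replicates 1 and 2 differed by up to 14.5-fold in Reg3b and 11.8-fold in Reg3g, both at ZT18, where replicate 1 held 5310 CPM of Reg3b and replicate 2 held 365.9 CPM. In convR ileum the largest such difference was 1.66-fold for Reg3b and 1.84-fold for Reg3g. In GF it was 9.47-fold for Reg3b in duodenum and 7.92-fold in ileum. Reg4 never differed by more than 2.79-fold between the 2 libraries of a time.

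The third question was whether the family follows the time of day. With a cosine of 24 h fitted by edgeR, 0 of the 5 members passed in any of the 4 groups. The background was 0.0301% of genes in convR duodenum (5 genes), 2.68% in GF duodenum, 0.133% in convR ileum and 1.39% in GF ileum. Reg3g and Reg3b showed no call under edgeR or DESeq2, and their fitted ranges from trough to peak were 0.42 and 0.20 log2 in convR duodenum and 0.56 and 0.47 log2 in convR ileum. In GF they were 0.59 and 0.95 log2 in duodenum and 0.59 and 0.86 log2 in ileum. The convR duodenum ranges moved with the libraries used, and none of these fits passed. They were 1.98 and 2.22 log2 over the 6 libraries without high pancreas markers. Those 6 included none of ZT2 and, at ZT18, only replicate 1. The ranges were 0.80 and 0.64 log2 without convR ZT14 replicate 1, which holds stomach markers, and 1.83 and 1.32 log2 without ZT18 replicate 1. At every one of the 6 times the GF mean was lower, by 24.7 to 88.0-fold for Reg3g in duodenum and 4.91 to 12.3-fold in ileum, and by 6.44 to 75.9-fold and 3.41 to 11.5-fold for Reg3b. Each of these means rests on at most 2 libraries. The smallest duodenum values are those at ZT2, and without GF ZT2 replicate 1 they were 63.2-fold for Reg3g and 33.7-fold for Reg3b, and the ranges began at 35.2-fold and 16.8-fold.

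Reg3a came nearest to a daily rhythm. In convR ileum its mean was 62.86 CPM at ZT2, 60.39 at ZT6, 45.72 at ZT10, 40.52 at ZT14, 40.9 at ZT18 and 52.06 at ZT22. In GF ileum it went from 119.4 CPM in the single library at ZT2 to 69.6 at ZT14 and back to 102.3 at ZT22. Both courses were high around lights on and low early in the dark. In convR duodenum the lowest mean was also at ZT14 (49.07 CPM) and the highest at ZT2 (121.4 CPM). That ZT14 mean includes replicate 1 (33.65 CPM), the library with stomach markers. Replicate 2 was at 64.49 CPM, above the ZT18 mean of 56.58 CPM. Leaving replicate 1 out gave a fitted range of 0.95 log2 in convR duodenum (edgeR adjusted p = 0.464). The fitted peak was at ZT 1.87 in convR duodenum, 3.16 in convR ileum and 2.46 in GF ileum, with ranges of 1.17, 0.69 and 0.64 log2. The edgeR adjusted p was 0.281, 0.202 and 0.0592, so none passed. DESeq2, run as an alternative, passed Reg3a in all 3 (adjusted p = 0.0441, 0.0172 and 0.00184). DESeq2 also called many more genes in these groups, 463, 287 and 642, against 5, 22 and 226 by edgeR. In GF duodenum its range was 0.37 log2 (edgeR adjusted p = 0.95). A difference in rhythm between GF and convR was called for 0 genes in either tissue by edgeR and by DESeq2. At an unadjusted p under 0.05 edgeR gave 739 genes in duodenum and 608 in ileum, and DESeq2 849 and 642. Each count is under a share of 0.05 of the genes tested (17986 in duodenum and 18082 in ileum), the share such a cut gives without any difference.

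**Figure D5:**
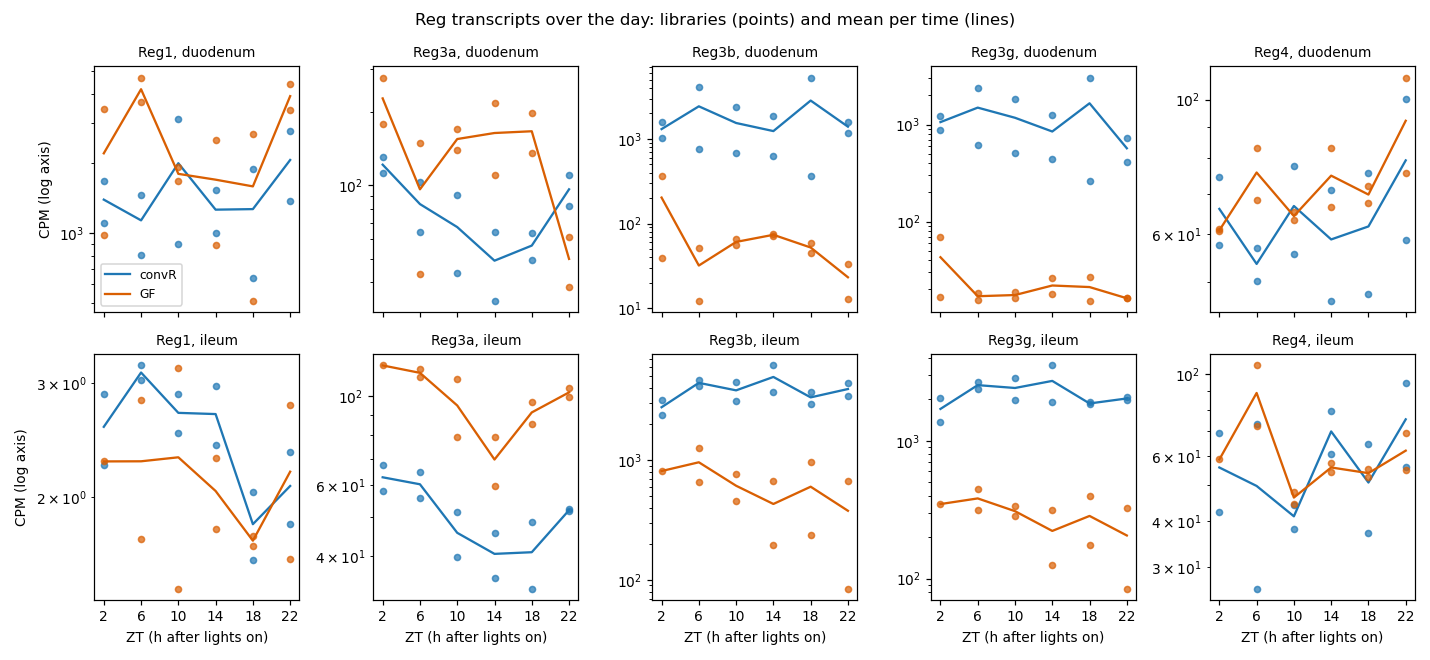
CPM on a log axis (range differs by panel) against ZT for the 5 Reg genes in duodenum (top) and ileum (bottom), convR in blue and GF in orange, with 1 point per library and a line through the mean at each time. Reg3a in ileum goes, in convR and GF, from 62.86 and 119.4 CPM at ZT2 to 40.52 and 69.6 CPM at ZT14.

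The genes that lead to Reg3 transcription were then described from fixed lists. Of 19 genes of microbial sensing, 12 fell and 2 rose in GF duodenum (all genes: 23.8% fell and 22.5% rose), and 13 fell and 2 rose in GF ileum (all genes: 22.4% and 19.5%). The median log2 fold change was -0.34 in duodenum and -0.57 in ileum, against -0.01 and 0.01 for all genes. Tlr2, a receptor for bacterial lipoproteins, fell by 1.40 ± 0.13 log2 in duodenum (3.25 ± 1.20 to 1.08 ± 0.22 CPM, SD; SE for the fold change, adjusted p = 4.47e-08) and by 1.68 ± 0.11 in ileum (adjusted p = 2.13e-10). Its partner Tlr1 fell by 1.06 in duodenum and 1.18 in ileum, Cd14, which hands lipopolysaccharide to Tlr4, fell by 1.24 in duodenum, and Il1r1, the interleukin 1 receptor, fell by 0.67 in ileum. These genes were chosen by smallest p and do not stand for the list. Myd88 did not pass in duodenum (0.01 log2, edgeR adjusted p = 0.936) and fell by 0.14 in ileum (adjusted p = 0.00738).

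Among its tested genes, the cytokine route was close to the background in duodenum. Of 18 tested genes of 22, 4 rose and 5 fell in GF duodenum (median 0.05, with 22.5% and 23.8% of all genes) and 4 rose and 9 fell in GF ileum (median -0.09, with 19.5% and 22.4%). The cytokine genes Il22, Il17a, Il23a and Il6 had too few counts to be tested, so these numbers say nothing of them. Il23r and Batf, at under 2 CPM, fell most (2.16 and 1.34 log2 in duodenum, 1.89 and 1.90 in ileum). Stat3 itself did not pass in duodenum (-0.002 log2, edgeR adjusted p = 0.983) and fell by 0.22 in ileum (adjusted p = 0.00624). The other genes named here were chosen by smallest p among those with a mean of at least 2 CPM, so they do not stand for the list. Il22ra2, the soluble decoy receptor of interleukin 22, fell by 0.88 ± 0.16 log2 in duodenum (SE, adjusted p = 1.0e-04) and 0.77 ± 0.18 in ileum (adjusted p = 0.00173). Il6st, the shared receptor chain that signals to Stat3, fell by 0.25 in duodenum and 0.26 in ileum. Ahr, a sensor of aromatic compounds, rose by 0.46 in duodenum, and Il17rc, a chain of the interleukin 17 receptor, rose by 0.34 in ileum. Extl3, proposed as a receptor for Reg proteins, was at 31.02 ± 6.32 and 27.82 ± 3.26 CPM in convR and GF duodenum (SD, adjusted p = 0.889) and did not pass in ileum (adjusted p = 0.605).

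Other epithelial defence genes linked to Stat3 were lower in GF as well. Of 14 such genes 9 were tested in duodenum, where 7 fell and 0 rose (median -1.27, with 23.8% of all genes lower), and 11 in ileum, where all 11 fell (median -1.95, with 22.4% lower). Duox2, which produces hydrogen peroxide at the epithelial surface, changed by -5.31 ± 0.58 log2 in duodenum (SE, adjusted p = 1.29e-06), and Nos2, the inducible nitric oxide synthase, by -6.73 ± 0.86 (adjusted p = 6.96e-06). Their convR duodenum levels varied widely, at 82.69 ± 97.4 CPM for Duox2 and 83.18 ± 198 CPM for Nos2 (SD). In GF duodenum they were at 1.46 ± 0.69 and 0.34 ± 0.20 CPM. Ccl28, a chemokine of mucosal tissues, fell by 1.13 in duodenum and 0.95 in ileum. In ileum Saa1, an acute-phase protein, fell by 4.98 ± 0.28 log2 (SE, adjusted p = 2.18e-10), and Pigr, which carries IgA across the epithelium, by 1.90 ± 0.08 (adjusted p = 4.59e-13).

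Of the marker lists for cells that make Reg proteins, the Paneth cell list had most of its genes lower in GF, the direction of Reg3b and Reg3g (all genes: 23.8% lower in duodenum and 22.4% in ileum). Of 11 Paneth cell genes 9 fell in GF duodenum and 10 in GF ileum, and their mean level went from 372 ± 94.6 to 157.2 ± 47.6 CPM and from 1775 ± 315 to 873.8 ± 219 CPM (SD). The Paneth cell pentraxin Mptx2 (listed as Gm11062) fell by 4.83 log2 in duodenum and by 2.59 in ileum, and the Paneth cell lysozyme Lyz1 fell by 1.03 in duodenum. The enterocyte list went the other way from Reg3b and Reg3g in duodenum: of 13 genes 7 rose and 0 fell there (22.5% of all genes rose), and 4 rose and 1 fell in ileum (19.5% rose). Of 10 goblet cell genes 1 rose, 3 fell and 6 did not pass in duodenum (median -0.17, with 46.3% of all genes called), and 1 rose and 5 fell in ileum (median -0.11, 42.0%). The part of these cell types in the Reg differences was not tested. None of the 15 tested pancreas genes passed between GF and convR duodenum, and none of 3 tested stomach genes. This does not show equal levels, since a few libraries held most of these reads and the fits were loose. Pnliprp1, the pancreas gene of smallest p, was at -1.80 ± 1.71 log2 and Tff2 at -1.45 ± 3.12 (SE). The mean of the pancreas markers was 54.95 ± 74.1 CPM in convR and 91.22 ± 208.5 CPM in GF duodenum (SD).

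Finally, the genes whose levels most resembled each member over the 47 libraries were listed among 12050 genes with a mean of at least 2 CPM. For Reg1 they were Tmprss15 (r = 0.995), the enteropeptidase that activates trypsinogen, with Pdx1, a factor of pancreas and duodenum, and Otop3, a proton channel (both r = 0.99). For Reg3b they were Reg3g (r = 0.98), the inflammatory caspase Casp4 (r = 0.91) and the epithelial kinase Ptk6 (r = 0.90), and for Reg3g they were Reg3b, Ptk6 (r = 0.93) and Duox2 (r = 0.93). Reg3a resembled Aco1, the cytosolic aconitase (r = 0.79), Hnf4g, a nuclear receptor of enterocytes (r = 0.79), and Eif2ak1, a haem-regulated kinase (r = 0.78). Reg4 had no close likeness, with Hint1 first at r = 0.70. These r values rest largely on the differences between tissues and between GF and convR that the libraries share.

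Once the mean of each tissue and status was removed, other genes came first. Reg1 was nearest to Fth1, the ferritin heavy chain (r = 0.90), Otop3 (r = 0.88) and Akp3, an intestinal alkaline phosphatase (r = 0.87). Reg3a was nearest to Abp1, the diamine oxidase (r = 0.86), Nts, which encodes neurotensin (r = 0.74), and Prkg2, a cGMP-dependent kinase (r = 0.73). After each other (r = 0.88), Reg3b was nearest to the serine protease Prss30 (r = 0.76) and the lectin Clec2h (r = 0.72), and Reg3g to Slc5a8, which imports short-chain fatty acids (r = 0.75), and Clec2h (r = 0.69). Reg4 was nearest to Tph1, which makes serotonin in enteroendocrine cells (r = 0.75), Vdac3 and Hint1 (both r = 0.74). All are over 47 libraries, and libraries with pancreas or stomach markers enter them.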

How the data were processed

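Total RNA of duodenum and ileum was made into stranded, ribosomal RNA-depleted libraries (250 ng, 12 PCR cycles, paired reads of 100 nt, pooled by 24), per the labels' protocols. Reads were aligned with STAR 2.4.0i to mm10, per the submitters' processing notes. The authors deposited raw counts of exonic reads per gene with the exon length. Which counter, annotation and strand option they used is not given in the sources used here. Of 38087 identifiers 36308 matched GENCODE M21. Counts were tested with edgeR 4.0.16 (quasi-likelihood, robust, TMM, low-count filter at 10, ZT as a factor, two-sided, Benjamini-Hochberg over all genes, threshold 0.05), and all 5 members passed the filter in every comparison. SE is the log2 fold change over the square root of F. CPM per kb used the length of the first protein-coding GENCODE transcript, because the deposited exon length of Reg3g is 2.74 times that of its spliced transcript. The 23 pairs of libraries of one time and group differed beyond counting noise (chi-square per degree of freedom 16.9 to 146). Same-numbered convR libraries deviated together in duodenum and ileum (r = 0.25 to 0.62, over 0.1 at 6 of 6 times), and those of other pairings did not at all times (lowest r -0.07, -0.04 and -0.04). The block changed no member's call between convR tissues. Members and gene lists were chosen with earlier results of these data known. Apart from the members, Reg2 and Reg3d, the rule names up to 3 genes per list and tissue with the smallest p (mean of at least 2 CPM) and the 3 genes most like each member. Myd88, Stat3, Il23r and Batf were named in addition. Scripts were tested on simulated data. Alternatives were library-total scaling, DESeq2 1.42.0, no filter, a replicate block, a pancreas covariate, and leaving out libraries. Leaving out ileum libraries of low Fabp6 was chosen after seeing the data.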

Additional observations from a re-analysis of the deposited data

Results flagged for a closer look

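The difference between GF and convR was not the same size in the 2 tissues for Reg3b and Reg3g, by a test of the difference itself. For Reg3g the log2 fold change in ileum minus that in duodenum was 2.62, with -5.54 in duodenum and -2.92 in ileum, and GF was lower at 6 of 6 times in both. For Reg3b it was 2.17, with -4.82 and -2.65, and GF was again lower at 6 of 6 times in both. Without the 8 duodenum libraries of high pancreas markers the differences were 2.70 for Reg3g and 2.27 for Reg3b, and without the 2 ileum libraries of little Fabp6 they were 2.74 and 2.29. The Reg3b difference missed the threshold with no filter on low counts (2.17, edgeR adjusted p = 0.0522) and in 5 of 47 fits that left out a library.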

How the results depend on the processing

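Of 330 member values under settings other than leaving out a library, 311 kept their side of the threshold and, where compared, their direction. So did 1137 of 1175 with 1 library left out. In rhythm fits where neither version passed, the direction (fitted peak) was not compared. For Reg1 in convR duodenum the peak was ZT 20.6 as reported and ZT 8.26 without pancreas-marker libraries. Between GF and convR duodenum, Reg4 lost its call under library-total scaling (0.18), no filter (0.30, adjusted p = 0.111) and without stomach-marker libraries (0.21), and ran from 0.25 to 0.36 with 1 library left out. Reg1 passed under a replicate block (0.76) and with the pancreas covariate (0.96), and ran from 0.65 to 0.97; 5 single omissions brought it past the threshold (convR ZT10 or ZT18 replicate 2, GF ZT2, ZT14 or ZT18 replicate 1). Reg3a lost its call under the replicate block (0.89) and without pancreas-marker libraries (1.14). For the difference between tissues, Reg3b lost its call with no filter (2.17, adjusted p = 0.0522) and ran from 1.78 to 2.55. Reg3a, far from a call, changed sign without pancreas-marker libraries (-0.13), without GF duodenum ZT6 replicate 1 (-0.013) and without GF duodenum ZT22 replicate 2 (-0.061), and ran from -0.061 to 0.24. Reg1 ran from -1.13 to -0.79, and passed only without convR duodenum ZT10 replicate 2. Between ileum and duodenum, Reg3g in convR lost its call with no filter (0.95) and without pancreas-marker (1.16) or stomach-marker libraries (0.85), and ran from 0.85 to 1.29. Reg3a in GF passed without pancreas-marker (-0.75) or stomach-marker libraries (-0.67) and ran from -0.67 to -0.40. The rhythm of Reg3a passed with DESeq2 in convR duodenum (range 1.17 log2), convR ileum (0.69) and GF ileum (0.64), under the replicate block in convR ileum (0.71) and with no filter in GF ileum (0.63), where it ran from 0.50 to 0.70. Rhythmic genes in convR duodenum numbered 5, against 463 with DESeq2, 32 with no filter, 12 under the block, 0 without pancreas-marker and 2 without stomach-marker libraries, and 1 to 21 with 1 library left out. In convR ileum they numbered 22, against 8 with library-total scaling, 287 with DESeq2, 41 with no filter, 51 under the block, 5 without libraries of low Fabp6, and 1 to 27. In GF duodenum they numbered 432, against 1094 with DESeq2 and 143 to 759, and in GF ileum 226 against 642 with DESeq2. Where a call changed, the cause was not tested. The split of all called genes, higher against lower in GF, was 4041 to 4287 in duodenum and 3535 to 4052 in ileum, and 2143 to 6618 and 2316 to 4866 under library-total scaling. For ileum over duodenum it was 4515 to 4500 in convR and 5940 to 5978 in GF, and 5092 to 3819 and 7944 to 4601 under that scaling. For the difference between tissues it was 870 to 1461, and 1214 to 968. Reg2 and Reg3d rest on few counts. Same-numbered libraries deviated together at 6 of 6 times only between convR tissues, and the labels do not say whether they share a mouse. Elsewhere the block is a check on numbers alone.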

Other observations

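Reg2, which like Reg1 is known from the exocrine pancreas, did not follow the pancreas markers in the same way in GF and convR duodenum. The 6 convR libraries over 20 CPM of pancreas markers held 277 counts of Reg2 at ZT2 replicate 1, 92 at ZT2 replicate 2, 118 at ZT6, 213 at ZT14, 13 at ZT18 and 111 at ZT22. Their marker means were 34.6, 76.67, 78.38, 157.1, 70.53 and 231.9 CPM. The 2 GF libraries had higher marker means, 498.5 CPM at ZT6 and 573.9 CPM at ZT22, and held 4 and 3 counts of Reg2. With 2 GF libraries this was not tested.

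Reg1 and Reg4 varied together over the 12 convR duodenum libraries (r = 0.75) but less so over the 12 of GF (r = 0.22). In convR duodenum replicate 2 exceeded replicate 1 at all times but ZT2 for Reg1 and all but ZT6 for Reg4. The part of this difference between replicates in the convR value of r was not tested. Reg1 and Reg3g ran in opposite directions over the libraries of both groups in duodenum (r = -0.51 in convR and -0.66 in GF). All are Pearson r of log2(CPM + 0.5), given as descriptions of libraries that share depth and the piece of tissue taken.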
